A study of Homo sapiens with 36 samples.

Results

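The genes examined were 10 lineage transcription factors, PAX2, PAX8, WT1, EMX2, SOX17, LHX1, BARX2, MEOX1, GATA4 and GATA6. They were taken from the 57820 genes of a count table of human A2780 ovarian cancer cells. They were matched by Ensembl identifier, and 9 of the 10 had a row. No row was matched to LHX1, so no value is given for it. PAX2, BARX2 and MEOX1 were put on the list because they differed widely between the lines or upon removal of serine and glycine, so their levels in those comparisons are a description with no test. The comparisons with carboplatin played no part in the choice and were tested, except where stated below. They share their untreated libraries with the comparisons used for the choice, so these tests are not independent of it.

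Total RNA was sequenced from 3 lines in 12 conditions, with 3 libraries per condition and 36 in all. The wt cells are the platinum-sensitive parental A2780 line, the cis cells are its isogenic derivative made resistant by chronic exposure to cisplatin, and the cis SSP cells are an outgrowth of the cis cells that resumed growth without serine and glycine and regained serine synthesis. Each line was grown in complete medium or in homemade medium with dialyzed serum and without serine and glycine (-SG), and with or without carboplatin (carbo). The labels write the carboplatin dose as 6 M. Its unit is doubtful, since other assays of these cells used micromolar doses, and no time of harvest is given for the RNA on the labels. Each line is 1 culture lineage, and the study calls the libraries technical replicates, so p-values measure the spread between libraries and not between separately derived lines.

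Paired-box, homeodomain, zinc-finger, GATA and SOX factors of this kind bind DNA and take part in fixing the identity of cells. Some of those listed act in the early urogenital tract and some elsewhere. PAX2, PAX8, EMX2 and LHX1 act in the intermediate mesoderm and in the ducts that form from it, the Wolffian (mesonephric) duct and the Mullerian duct, which gives rise to the oviduct, uterus and upper vagina. WT1 and GATA4 act in the gonadal ridge and kidney, and SOX17 and GATA6 are better known from endoderm. PAX8 and WT1 are used in pathology as markers of serous ovarian cancer. BARX2 is a homeodomain factor of epithelia and developing muscle, and MEOX1 a homeodomain factor of the somites.

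PAX2 lies on the plus strand of chromosome 10 (GRCh37, chr10:102495153-102589701). Because its counts were high in wt cells and 0 in cis cells, the promoter windows of PAX2 are shown here, as RefSeq gives them on GRCh38.p14: chr10:100735146-100735445 and chr10:100745332-100745631, both on the plus strand, from 250 bases before to 50 bases after an annotated start. CG dinucleotides, the sites at which DNA can be methylated, stand in capitals.
PAX2 first window: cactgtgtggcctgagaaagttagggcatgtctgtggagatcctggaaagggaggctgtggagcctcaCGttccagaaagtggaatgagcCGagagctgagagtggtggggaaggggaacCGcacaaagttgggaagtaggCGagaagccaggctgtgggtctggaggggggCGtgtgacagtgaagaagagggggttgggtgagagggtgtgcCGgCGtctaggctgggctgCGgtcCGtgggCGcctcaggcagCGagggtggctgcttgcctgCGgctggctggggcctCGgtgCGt
PAX2 second window: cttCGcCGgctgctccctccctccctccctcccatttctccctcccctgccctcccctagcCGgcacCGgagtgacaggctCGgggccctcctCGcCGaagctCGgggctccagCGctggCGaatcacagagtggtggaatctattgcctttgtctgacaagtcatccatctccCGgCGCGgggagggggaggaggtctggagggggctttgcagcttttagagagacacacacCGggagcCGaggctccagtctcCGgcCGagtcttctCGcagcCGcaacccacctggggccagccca
The first window holds 14 CG dinucleotides and has a GC content of 63.7%, and the second holds 19 with a GC content of 66.7%. Over 35116 RefSeq windows of 300 bases the medians are 14 CG dinucleotides and 58.7%. On either strand, neither PAX2 window holds TATAAA (in 11.5% of all windows), CCAAT (34.6%), AGATAA (10.3%), TAATTA (4.84%) or TGATGNAA (3.62%). RefSeq windows were matched for 5 of the 10 factors, PAX2, PAX8, EMX2, WT1 and GATA6.

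Before any comparison, some libraries stood apart. The libraries held between 13074937 and 20441582 counts each. Replicate 1 of cis SSP and replicate 2 of cis SSP -SG differed from their group mates by a root mean square of 0.632 and 0.651 on the log2 scale, against 0.0875 to 0.257 in the 30 libraries of the other 10 conditions. In both, genes with longer exons tended to be lower (r = -0.566 and -0.567 with log2 exon length). The library at 0.257 was wt -SG carbo replicate 2 (r = -0.543), which stayed in the comparisons of that condition. In replicates 2 and 3 of cis -SG carbo, reads on no feature made up 17.9% and 14.9% of the counts, against 4.21% to 9.31% in all other libraries. The wt and cis SSP libraries carry the same 12 index sequences, so they were sequenced apart, and between these lines the line and the sequencing cannot be told apart. The cis libraries carry none of those index sequences, and the labels name no pool. As these are bulk samples, fewer cells that express a gene and less RNA per cell cannot be told apart either.

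The ovarian label was checked against markers. Of 19 Mullerian epithelium genes, 12 had at most 10 counts in each of the 36 libraries, among them MUC16 (the CA-125 antigen), WFDC2 (HE4), MSLN, KRT7, CDH1, CLDN3, CLDN4, ESR1 and PGR. The summed level of the list was 124 to 331 CPM (counts scaled to a common effective library size) in wt libraries, 19.9 to 53.0 in cis libraries and 15.98 to 27.4 in cis SSP libraries. In wt cells most of it was CRABP2 (119 to 277 CPM in the condition means), and in cis cells most of it was KRT18, so the sum does not stand for the list. Of the leukocyte markers PTPRC, CD3E and CD68, and of the endothelial markers CDH5 and VWF, none exceeded 10 counts in a library. Of the 5 fibroblast genes, COL3A1 was at 1425 CPM in wt, 3546 in cis and 3649 in cis SSP cells. COL1A2 was at 369 CPM in wt cells. It was nearly absent from the others, at 0.0620 CPM in cis and 0.321 in cis SSP cells. COL1A1 was at 162 CPM in wt, 4.02 in cis and 18.02 in cis SSP cells. DCN and LUM were instead highest in cis SSP cells. DCN was at 0.490 CPM in wt, 0.628 in cis and 24.7 in cis SSP cells. LUM was at 1.02 CPM in wt, 0.616 in cis and 4.89 in cis SSP cells. The part of another cell type in the results below was not tested.

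Of the 9 factors measured, 4 rose above 1 CPM in the mean of some condition: PAX2, BARX2, MEOX1 and WT1. The other 5, PAX8, EMX2, SOX17, GATA4 and GATA6, had at most 10 counts in each of the 36 libraries. Per length of exon, the highest level of any factor was that of BARX2 in cis SSP -SG cells, at 109 ± 15.6 RPKM (CPM per kilobase of exon, SD, n = 3). PAX2 reached 29.6 ± 1.97 RPKM in wt -SG cells, MEOX1 6.24 ± 0.393 RPKM in cis SSP cells, and WT1 0.143 ± 0.0228 RPKM in cis -SG cells.

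**Figure D1:**
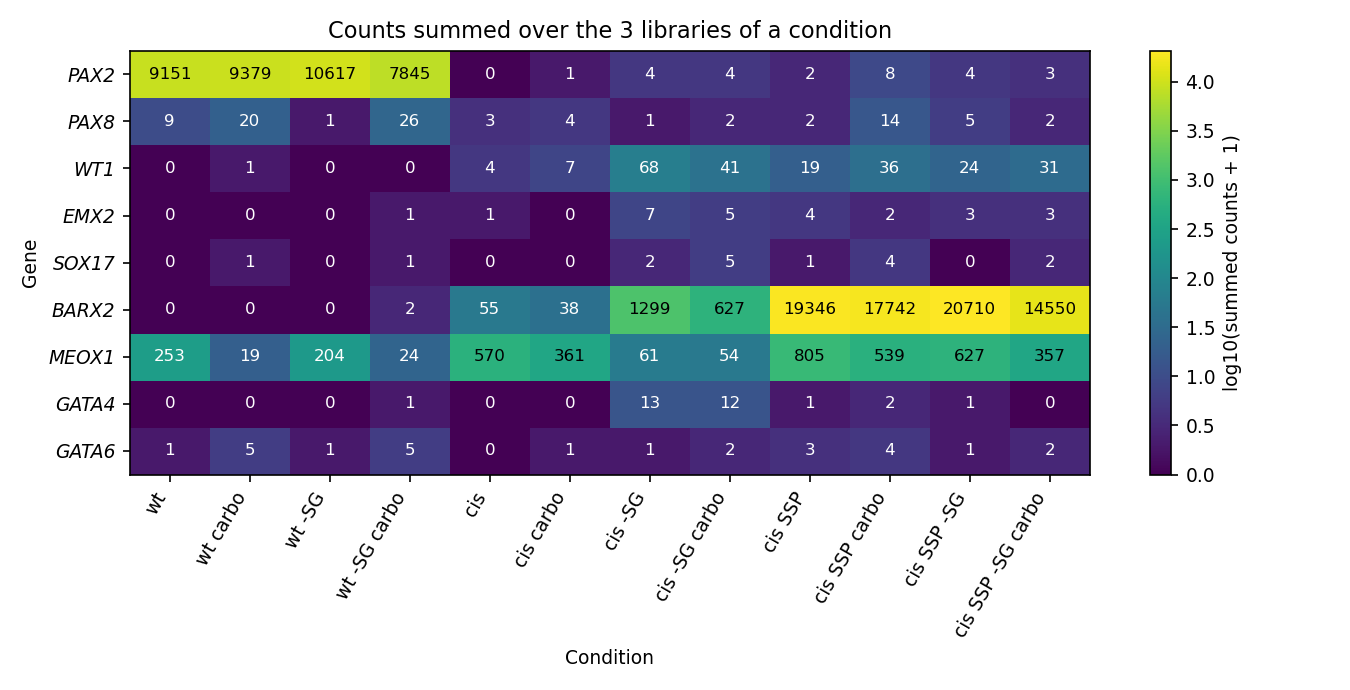
Counts summed over the 3 libraries of each condition (columns) for the 9 factors with a row (rows), with the colour on a log10(count + 1) scale and the count printed in each cell. PAX2 counts are 7845 to 10617 in the wt columns and at most 8 elsewhere, BARX2 counts are highest in the cis SSP columns, and PAX8, EMX2, SOX17, GATA4 and GATA6 stay at or below 26 in every column.

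PAX2 was present in every wt library and nearly absent from every cis and cis SSP library. The wt libraries had 3023, 2997 and 3131 counts, or 167, 165 and 164 CPM. In cis cells the counts were 0, 0 and 0, which allows up to 3 counts over the condition, and PAX2 was therefore at least 2869-fold lower in cis than in wt cells. In cis SSP cells the counts were 2, 0 and 0, a level 4012-fold below that of wt cells, with an exact 95% counting interval of 1110 to 33131. Intervals and limits of this kind cover counting error only.

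Over all conditions the 12 wt libraries lay between 164 and 206 CPM with a median of 174 CPM, and the 24 libraries of the other lines lay between 0 and 0.219 CPM. The groups did not overlap. Of those 24 libraries, 8 had no PAX2 count, the highest had 4 counts, and the 26 counts they held together compare with 36992 counts in the 12 wt libraries. Between cis and wt cells, 78.5% of the 14431 genes tested were called, that is, had an adjusted p-value under 0.05.

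Within wt cells PAX2 varied little. Without serine and glycine the libraries were at 180, 206 and 198 CPM, all above the 164 to 167 CPM of complete medium, and the fitted log2 difference was 0.24. That comparison belongs to those PAX2 was chosen from, and 49.2% of 14284 genes were called in it. With carboplatin in complete medium the libraries were at 187, 174 and 179 CPM, and with carboplatin without serine and glycine at 174, 173 and 173 CPM.

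Carboplatin was associated with a small PAX2 difference of opposite sign in the 2 media. In complete medium PAX2 rose by 0.13 (log2, SE 0.0253, edgeR quasi-likelihood test, Benjamini-Hochberg adjusted p = 5.97e-07), and the groups did not overlap. Without serine and glycine it fell by 0.16 on the log2 scale (SE 0.0599, edgeR, adjusted p = 0.0357), from 195 ± 12.9 to 173 ± 0.818 CPM (SD, n = 3). The call in complete medium was lost in 1 fit over the 36 libraries (edgeR, adjusted p = 0.320), and the call without serine and glycine was lost when wt -SG replicate 2 or 3 or wt -SG carbo replicate 1 or 3 was left out, with adjusted p from 0.0675 to 0.135 in edgeR. It was also lost in 1 fit over the 36 libraries (edgeR, adjusted p = 0.164), with DESeq2's size factors (edgeR, adjusted p = 0.0523) and in DESeq2 (adjusted p = 0.0612). The change of sign between the media was not tested.

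PAX8, the paralogue of PAX2, stayed at the lower limit of detection. Its counts were 3, 5 and 1 in wt, 8, 6 and 6 in wt carbo, 0, 1 and 0 in wt -SG, and 8, 10 and 8 in wt -SG carbo cells. All other libraries had at most 5 counts, the most being 4, 5 and 5 in cis SSP carbo cells. The 2 carboplatin conditions of wt cells thus held its highest counts. Summed over libraries, wt -SG carbo cells had 26 counts against 1 in wt -SG cells, a ratio of 31.4 with an exact 95% counting interval of 5.17 to 1289, and wt carbo cells had 20 against 9, a ratio of 2.36 (1.03 to 5.90). PAX8 did not pass the filter on low counts in either comparison. With 1 count in wt -SG cells, a test there would rest on the treated libraries alone, so none is given. The antisense gene PAX8-AS1, which overlaps it on the opposite strand, had 0 to 19 counts in a library, and since the strand setting of the counting is not given in the sources used here, reads of the pair cannot be told apart.

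BARX2 showed the reverse order of lines. It lies on the plus strand of chromosome 11 (GRCh37, chr11:129245743-129322174). In wt, wt carbo and wt -SG cells all 9 libraries had 0 counts, and in wt -SG carbo cells the counts were 0, 1 and 1. In cis cells there were 12, 23 and 20 counts, or 0.782, 1.23 and 1.11 CPM, which is at least 19.5-fold above wt cells. The cis SSP libraries had 6222, 6355 and 6769 counts, or 456, 383 and 370 CPM, 377-fold above cis cells with a counting interval of 290 to 501. No cis SSP library overlapped any cis or wt library in BARX2 level. Without replicate 1 of cis SSP, which stood apart, the remaining libraries were at 383 and 370 CPM. Between cis SSP and cis cells, 29.1% of 13714 genes were called.

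BARX2 was higher without serine and glycine in cis cells, and overlapped between the media in cis SSP cells. In cis -SG cells the libraries held 468, 420 and 411 counts, or 23.9, 21.9 and 20.9 CPM. Every one of them lay above every cis library in complete medium, and the pooled ratio was 21.03 with a counting interval of 16.1 to 28.1. Among 14122 genes tested between cis -SG and cis cells, 75.0% were called. The level in cis SSP -SG cells was 375, 477 and 378 CPM, which overlapped with the 370 to 456 CPM of cis SSP cells, at a pooled ratio of 1.01 (0.991 to 1.03), in a comparison in which 0.0218% of 13736 genes were called. Without serine and glycine, cis SSP cells were thus at 18.1 times the level of cis cells (17.1 to 19.2). These are values of comparisons from which BARX2 was chosen, and the difference between the lines was not tested.

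Carboplatin lowered BARX2 in cis -SG cells. The treated libraries were at 12.5, 10.9 and 12.2 CPM, all below the untreated 20.9 to 23.9 CPM, and the log2 difference was -0.90 (SE 0.0802, edgeR quasi-likelihood test, Benjamini-Hochberg adjusted p = 9.02e-06). Replicates 2 and 3 of the treated condition, at 10.9 and 12.2 CPM, were the libraries with the largest share of counts on no feature. BARX2 was the only one of 3 factors tested in this comparison to be called, against 22.5% of 14476 genes. In cis cells in complete medium, carboplatin libraries had 12, 9 and 17 counts against 12, 23 and 20, which overlapped, with a log2 difference of -0.37 (SE 0.306, edgeR, adjusted p = 0.445). In cis SSP cells the level with carboplatin was 326, 332 and 310 CPM, and in cis SSP -SG cells it was 322, 315 and 329 CPM. Both sets lay below their untreated libraries without overlap, yet the log2 differences of -0.29 (SE 0.111, edgeR, adjusted p = 0.267) and -0.33 (SE 0.124, edgeR, adjusted p = 0.287) did not pass. Without cis SSP replicate 1 the first became -0.20 (SE 0.0274, edgeR, adjusted p = 1.49e-06), and without cis SSP -SG replicate 2 the second became -0.20 (SE 0.0276, edgeR, adjusted p = 7.29e-06). Both were also called with all libraries kept in 1 fit over the 36 libraries (edgeR, adjusted p = 0.0299 and 0.0197).

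**Figure D2:**
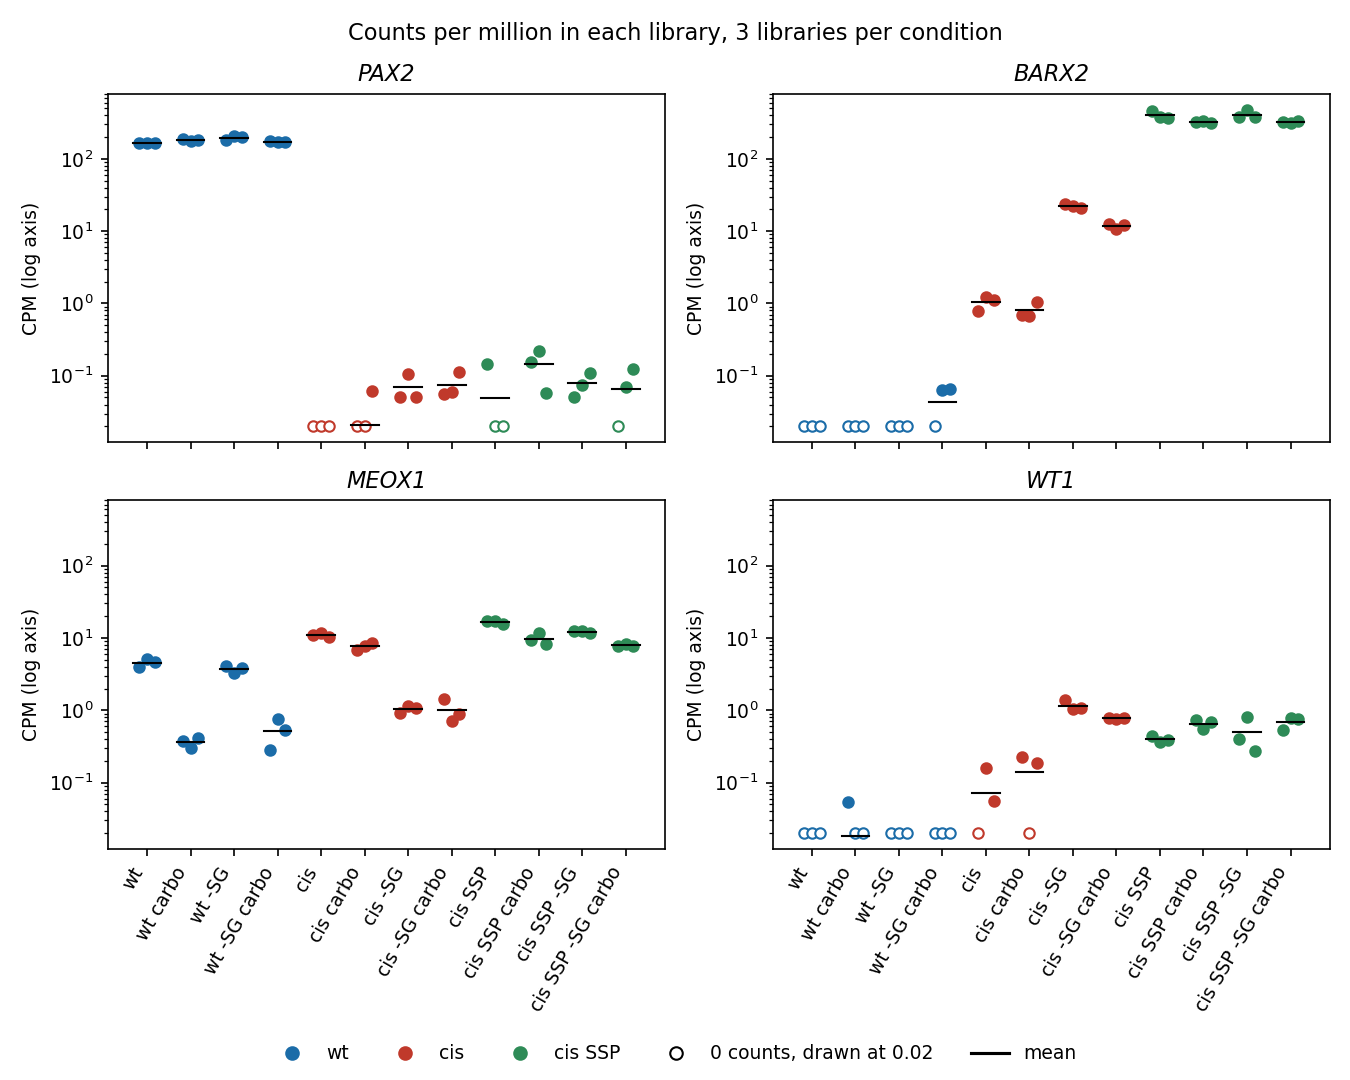
Level of PAX2, BARX2, MEOX1 and WT1 in each of the 36 libraries (points, CPM on a log axis) by condition, coloured by line, with the mean of each condition as a bar and libraries with 0 counts as open circles drawn at 0.02. PAX2 points lie between 164 and 206 CPM in wt cells and at or below 0.219 CPM elsewhere, and BARX2 points climb from 0 in wt cells to between 310.3 and 477 CPM in cis SSP cells.

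MEOX1 was detected in all 36 libraries, with 4 to 286 counts. It lies on the minus strand of chromosome 17 (GRCh37, chr17:41717757-41739290). In complete medium without carboplatin the libraries were at 3.93, 5.12 and 4.66 CPM in wt, 10.8, 11.5 and 10.5 CPM in cis, and 17.3, 17.3 and 15.5 CPM in cis SSP cells. The 3 lines did not overlap, with cis at 2.40 times wt (counting interval 2.06 to 2.79) and cis SSP at 1.51 times cis (1.36 to 1.69). MEOX1 was chosen for such differences, and they are given without a test.

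Deprivation of serine and glycine went with overlapping MEOX1 levels in wt cells and with a lower level in cis cells. The wt -SG libraries were at 4.09, 3.29 and 3.80 CPM, which overlapped with those in complete medium. The cis -SG libraries were at 0.918, 1.15 and 1.07 CPM, below every cis library in complete medium, at a pooled ratio of 0.0953 (0.0719 to 0.124). In cis SSP -SG cells the level was 12.5, 12.5 and 11.6 CPM, below the cis SSP libraries without overlap, at a ratio of 0.735 (0.661 to 0.817). That interval covers counting error only, and cis SSP replicate 1 and cis SSP -SG replicate 2 stood apart from their group mates. Of all genes tested upon deprivation, 49.2% were called in wt, 75.0% in cis and 0.0218% in cis SSP cells. MEOX1 was chosen from such comparisons, and no test is given. The order of the lines thus differed between the media, since cis cells were above wt cells in complete medium and below them without serine and glycine.

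MEOX1 fell with carboplatin in wt cells in both media. The wt carbo libraries had 7, 5 and 7 counts, or 0.378, 0.305 and 0.410 CPM. All lay below the 3.93 to 5.12 CPM of wt cells, and the fitted log2 difference was -3.61. In wt cells without serine and glycine the treated libraries had 4, 12 and 8 counts against 83, 62 and 59. The fitted log2 difference there was -2.79. In both comparisons MEOX1 passed the filter on low counts only through the untreated libraries. These values are therefore a description with no test. Among all genes, 77.8% of 14639 were called in complete medium and 68.9% of 14467 without serine and glycine. The other factor that passed the filter, PAX2, was called in both.

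The response of cis cells in complete medium was smaller. With carboplatin, cis libraries were at 6.88, 7.86 and 8.50 CPM, below the untreated 10.5 to 11.5 CPM, at a log2 difference of -0.49 (SE 0.102, edgeR, Benjamini-Hochberg adjusted p = 7.07e-04). MEOX1 was the called one of the 2 factors tested there, against 20.1% of 13458 genes. The fitted interaction, the difference between the 2 lines, was 3.13 on the log2 scale, cis minus wt. In it 57.6% of 15300 genes were called. Its wt side rests on 19 counts summed over the 3 wt carbo libraries, and MEOX1 was chosen for line differences. No test of it is therefore given. The interaction could not be judged for PAX2 or BARX2, each of which had almost no counts in 1 of the lines.

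In cis -SG cells, where MEOX1 was already at about 1 CPM, the treated libraries were at 1.45, 0.708 and 0.889 CPM and overlapped with the untreated ones, with a log2 difference of -0.03 (SE 0.306, edgeR, Benjamini-Hochberg adjusted p = 0.963). Replicates 2 and 3 of the treated condition were the libraries with the largest share of counts on no feature, and without them 1 treated library remained, at 1.45 CPM, which gives no comparison over replicates. In cis SSP cells MEOX1 went from 15.5 to 17.3 CPM down to 9.50, 11.7 and 8.14 CPM, and in cis SSP -SG cells from 11.6 to 12.5 CPM down to 7.71, 8.33 and 7.71 CPM. Neither pair of groups overlapped. The log2 differences of -0.73 (SE 0.153, edgeR, adjusted p = 0.0704) and -0.61 (SE 0.105, edgeR, adjusted p = 0.0563) missed the threshold.

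Among the factors tested with carboplatin in cis SSP cells, edgeR called 0 of 2 in complete medium (2.72% of 13885 genes called) and 0 of 3 without serine and glycine (1.47% of 13541 genes). At an unadjusted p under 0.05 there were 2 and 2, and DESeq2 called 1 in each, which was MEOX1 (adjusted p = 0.00919 and 0.0174). Leaving out cis SSP replicate 1, or cis SSP -SG replicate 2, raised the edgeR count to 2 of BARX2 and MEOX1 in each comparison, with adjusted p for MEOX1 of 2.18e-05 and 1.37e-04.

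WT1, a zinc-finger regulator of the kidney and gonad, was low throughout. It lies on the minus strand of chromosome 11 (GRCh37, chr11:32409321-32457110), away from BARX2. The 12 wt libraries held 1 count in all. In cis cells there were 0, 3 and 1 counts, in cis -SG cells 27, 20 and 21, in cis SSP cells 6, 6 and 7, and in cis SSP -SG cells 8, 11 and 5.

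The cis -SG libraries were the highest and stood above all cis libraries in complete medium. The pooled counts, 68 against 4, gave a ratio of 15.1 (5.65 to 57.1). WT1 passed the filter on low counts only through the group in which it was high, so this is given as a description with no test, in a comparison in which 75.0% of all genes were called. In cis SSP cells the 19 counts against 4 in cis cells gave a ratio of 5.10 (1.69 to 20.6). WT1 did not pass the filter on low counts in that comparison, so no test is given.

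With carboplatin WT1 had 14, 13 and 14 counts in cis -SG, 14, 10 and 12 in cis SSP, and 8, 11 and 12 in cis SSP -SG cells. The log2 differences were -0.57 (SE 0.275, edgeR, Benjamini-Hochberg adjusted p = 0.154) in cis -SG and 0.54 (SE 0.423, edgeR, adjusted p = 0.583) in cis SSP -SG cells. Neither passed. WT1-AS, which overlaps WT1 on the opposite strand, had 0 to 8 counts in a library.

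GATA4, a factor of the gonadal ridge and heart, was also highest without serine and glycine in cis cells, at lower counts. It had 3, 3 and 7 counts in cis -SG and 4, 6 and 2 in cis -SG carbo cells, and in the other 30 libraries at most 1 count each. Its 13 counts in cis -SG cells against 0 in cis cells put it at least 3.86-fold higher. It did not pass the filter on low counts, and its counts lay nearly all in the conditions in which it was high, so no test is given.

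EMX2, a homeodomain factor of the urogenital ridge, had 4, 2 and 1 counts in cis -SG cells, its highest condition, and 1 count in all 12 wt libraries together. SOX17 reached 3 counts in a cis -SG carbo library and was at 0 in 24 libraries. GATA6 reached 4 counts in a wt -SG carbo library and was at 0 in 17 libraries. Summed over the 12 libraries of a line, EMX2 had 13 counts in cis and 12 in cis SSP cells. None of these 3 genes passed the filter on low counts in any comparison, so differences between conditions were not tested in them. EMX2OS and GATA6-AS1, which overlap 2 of them on the opposite strand, had at most 6 and 2 counts in a library.

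The order of the conditions can be read for the 4 factors with levels. For PAX2 the order was wt -SG, wt carbo, wt -SG carbo and wt, in which each of the first 2 overlapped with the next, and all conditions of the other lines followed with overlapping ranges. For BARX2 the cis SSP -SG and cis SSP libraries came first and overlapped, then cis SSP carbo and cis SSP -SG carbo, which overlapped, then cis -SG, cis -SG carbo, and cis with cis carbo, and wt conditions came last. MEOX1 ran from cis SSP over cis SSP -SG to cis, which overlapped with cis SSP carbo, then cis SSP -SG carbo and cis carbo, which overlapped, then wt and wt -SG, which overlapped, and last cis -SG, cis -SG carbo, wt -SG carbo and wt carbo, each of which overlapped with the next. WT1 was highest in cis -SG cells, which overlapped with no other condition.

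Some genes had patterns like those of the factors over the 12 conditions. The likeness was Pearson's r of log2(CPM + 1) over the 12 condition means, computed against 14813 genes with at least 1 CPM in some condition, and is a description, since conditions share a line. The nearest to PAX2 were LAYN, a hyaluronan receptor (r = 0.9998), SEMA6D, a semaphorin (r = 0.9997), and NOX4, an NADPH oxidase (r = 0.9997). PAX2 was high in wt cells only, so these r mostly repeat the difference between lines for which it was chosen. BARX2 was followed by COL4A2 (r = 0.996) and COL4A1 (r = 0.991), chains of basement membrane collagen, and by AUTS2 (r = 0.993). Nearest to MEOX1 were TMEM109 (r = 0.991), the transcription factor MYBL2 (r = 0.987) and the thymidine kinase TK1 (r = 0.986). BARX2 and MEOX1 were chosen by the same rule as PAX2, so their r are not independent of the choice either. WT1 was followed by the phosphatase DUSP4 (r = 0.978), the interferon-induced RSAD2 (r = 0.976) and ABTB3 (r = 0.974). In the condition means WT1 did not exceed 1.16 CPM and RSAD2 did not exceed 1.28 CPM, so the r of WT1 rest on low counts. MYBL2 ran from 61.9 to 281 CPM and TK1 from 25.7 to 130 CPM, both with their highest mean in cis SSP cells, as MEOX1 had.

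The genes within 1 Mb of each factor's start were examined after the factors' values had been seen. Around PAX2, 25 of 61 genes were tested between cis and wt cells, 8 were higher and 12 lower, against 39.4% and 39.1% of all genes, and their median log2 difference was -0.25 against 0.00 over all genes. The share called, 20 of 25, was near that of all genes. The largest differences were those of SLF2, a factor of genome maintenance 178 kb downstream (-2.57, SE 0.0340, edgeR, Benjamini-Hochberg adjusted p = 2.16e-45), the long non-coding RNA OLMALINC (-2.36, SE 0.0768, edgeR, adjusted p = 1.05e-29), and the mitochondrial sideroflexin SFXN3 (2.55, SE 0.0984, edgeR, adjusted p = 8.22e-27). SLF2 kept 43.6 ± 1.19 CPM in cis cells against 255 ± 8.26 CPM in wt cells (SD, n = 3), so no neighbour tested followed PAX2 to 0.

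Around BARX2, 7 of 32 genes were tested between cis SSP and cis cells, and 4 were higher and 0 lower, against 15.8% and 13.3% of all genes, with a median of 0.46 against 0.01 over all genes. The potassium channel gene KCNJ5, 484 kb upstream, had 829 counts in cis SSP and 4 in cis cells, with 0 counts in every wt library, and its log2 difference was 7.63 (SE 0.332, edgeR, Benjamini-Hochberg adjusted p = 5.66e-05). TP53AIP1, a p53-regulated gene 432 kb upstream, had 171 counts against 2, a ratio of 91.7 (25.004 to 763), and a fitted log2 difference of 6.28 (SE 0.549, edgeR, adjusted p = 6.38e-04). ARHGAP32, which encodes a GTPase-activating protein and lies next to BARX2, differed by 2.55 (SE 0.414, edgeR, adjusted p = 0.00614), and APLP2 by 0.46 (SE 0.0961, edgeR, adjusted p = 0.0145). Of the other 3 genes tested, NFRKB, PRDM10 and ZBTB44, all downstream of BARX2, none passed in edgeR (lowest adjusted p = 0.218).

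In cis -SG against cis cells KCNJ5 rose from 4 to 38 counts, a ratio of 8.46 (3.05 to 32.6), and TP53AIP1 from 2 to 15 counts, a ratio of 6.68 (1.55 to 60.2), neither of which passed the filter on low counts. ARHGAP32 rose by 0.65 (SE 0.0458, edgeR, Benjamini-Hochberg adjusted p = 3.07e-17), from 42.2 ± 0.759 to 63.4 ± 2.56 CPM (SD, n = 3). Of the 5 genes tested there, 2 were higher and 3 lower, against 37.6% and 37.4% of all genes. In cis SSP cells ARHGAP32 ranged from 113 CPM in the library that stood apart to 325 CPM.

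**Figure D3:**
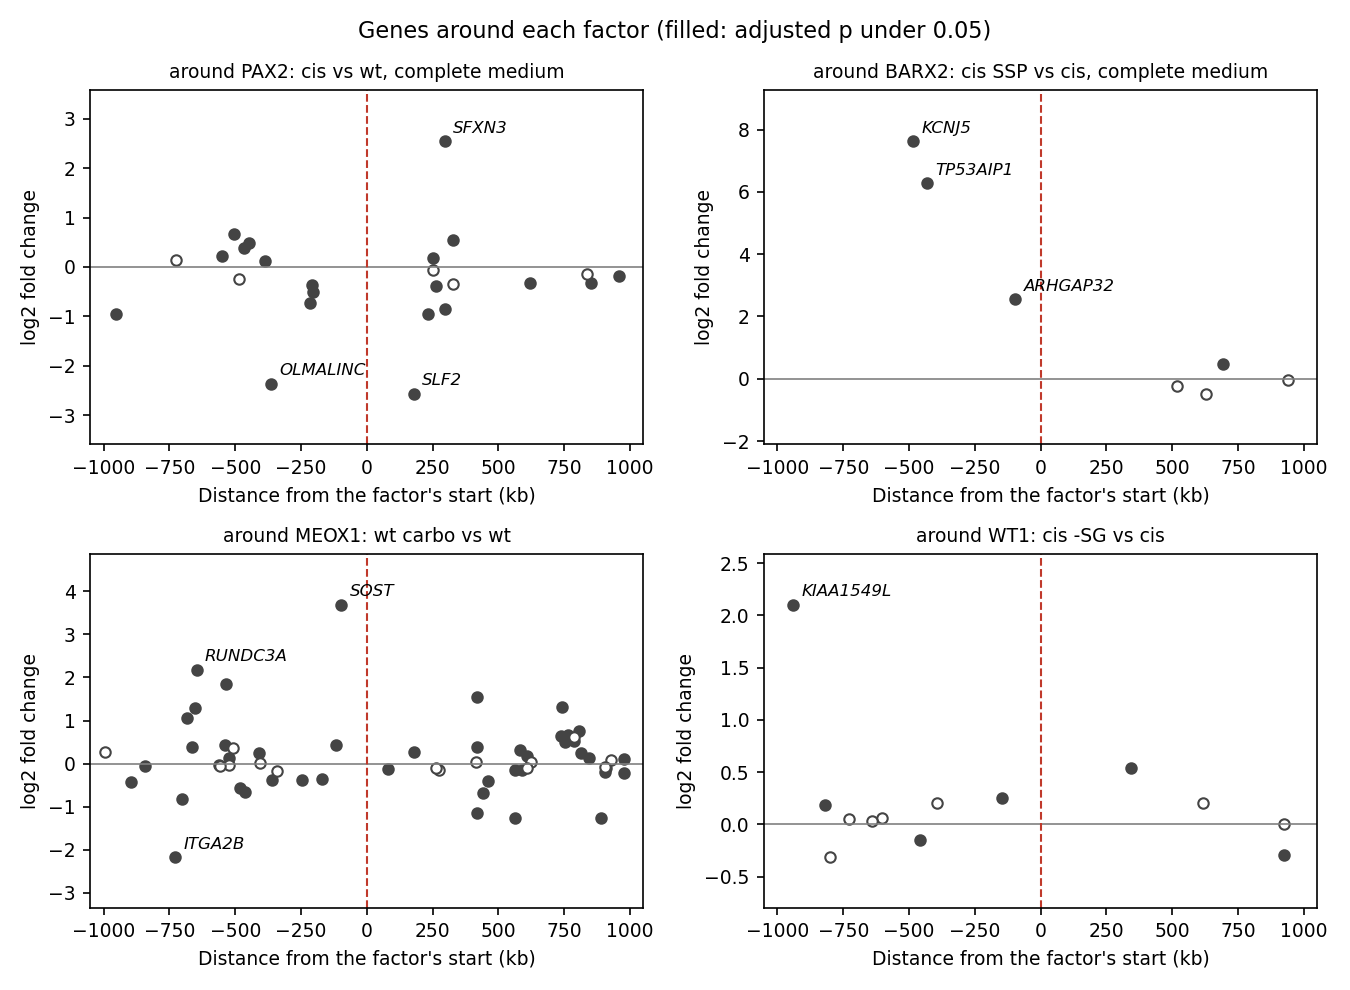
Log2 fold change (vertical axis) of genes within 1000 kb of the start of PAX2, BARX2, MEOX1 and WT1 (horizontal axis, kb, dashed line at the factor's start) in 1 comparison each, with filled points where the edgeR adjusted p was under 0.05. Upstream of BARX2 the points of KCNJ5, TP53AIP1 and ARHGAP32 stand at 7.63, 6.28 and 2.55, while the neighbours of PAX2 scatter on both sides of 0.

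Around MEOX1, 59 of 110 genes were tested with carboplatin in wt cells, of which 24 were higher and 20 lower, against 38.9% and 39.0% of all genes, with a median of 0.03. SOST, an inhibitor of WNT signalling and the nearest tested gene on 1 side, moved the other way from MEOX1, by 3.69 (SE 0.406, edgeR, Benjamini-Hochberg adjusted p = 2.29e-18). Between cis -SG and cis cells 57 of the 110 were tested, of which 14 were higher and 31 lower, against 37.6% and 37.4% of all genes, with a median of -0.17 against 0.01 over all genes. Around WT1, 13 of 35 genes were tested between cis -SG and cis cells, of which 4 were higher and 2 lower, against the same shares of all genes. PAX6, 618 kb away, did not pass (0.21, SE 0.219, edgeR, adjusted p = 0.394).

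Relatives of the factors, 19 genes of the PAX, EMX, SOX, LHX, BARX, MEOX and GATA families, were compared between the lines as well. In either direction, 78.5% of the 14431 genes tested were called between cis and wt cells, and the share of relatives called was near that. Between cis and wt cells 9 of the 19 were tested, 7 were higher and 1 was lower, with a median log2 difference of 2.31 against 0.00 over all genes, while 39.4% of all genes were called higher and 39.1% lower. These lists were chosen with results of these libraries known. BARX1, the paralogue of BARX2, had 1201 counts in cis and 1 count in wt cells and was at 23.2 CPM in cis cells (pooled ratio 1277, counting interval 229 to 50480, fitted log2 difference 9.83, SE 0.277, edgeR, Benjamini-Hochberg adjusted p = 3.93e-27). GATA2, a factor of blood and endothelium, rose by 2.63 (SE 0.0336, edgeR, adjusted p = 4.53e-46), and SOX7, a relative of SOX17, by 2.74 (SE 0.102, edgeR, adjusted p = 2.47e-27). MEOX2, the paralogue of MEOX1, rose from 178 to 476 CPM (log2 1.40, SE 0.0250, edgeR, adjusted p = 3.89e-40). PAX9 was the relative that was lower.

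MEOX2 was lower by 0.98 in cis -SG than in cis cells (SE 0.0284, edgeR, Benjamini-Hochberg adjusted p = 5.64e-32) and by 0.61 in wt carbo than in wt cells (SE 0.0269, edgeR, adjusted p = 5.67e-87), both in the direction of MEOX1 and smaller than its differences of -3.32 and -3.61. In cis SSP cells BARX1 did not differ beyond the spread from cis cells (-0.60, SE 0.324, edgeR, adjusted p = 0.209), and 10 relatives were tested, of which LHX2 was higher by 2.75 (SE 0.167, edgeR, adjusted p = 1.45e-04) and 4 were lower, against 15.8% and 13.3% of all genes. In cis -SG cells 6 of 11 relatives tested were higher and 3 lower, against 37.6% and 37.4% of all genes. GATA3, with 87 counts against 2 in cis cells, was the highest of them by fold, at a ratio of 38.7 (10.4 to 325).

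A list of 27 genes of the urogenital network, of which 25 had a row, was described beside the factors. Between cis and wt cells 11 were tested, 7 higher and 3 lower, against 39.4% and 39.1% of all genes, with a median of 1.43. LMX1B, a LIM-homeodomain factor of the kidney podocyte, rose from 0.324 to 29.3 CPM (log2 6.45, SE 0.147, edgeR, Benjamini-Hochberg adjusted p = 8.62e-36), the podocyte protein PODXL rose by 5.00 (SE 0.0992, edgeR, adjusted p = 2.88e-38), and CITED2, a co-activator in adrenal and gonad formation, rose by 2.67 (SE 0.0353, edgeR, adjusted p = 1.91e-45). Among the lower ones, the nephron progenitor factor SIX4 fell by 2.09 on the log2 scale (SE 0.0384, edgeR, adjusted p = 1.24e-39), and SIX2 fell by 0.22 (SE 0.0550, edgeR, adjusted p = 3.68e-04). EYA1, HOXA9, HOXA10, HOXA11, HOXA13, WNT9B and WNT7A were among the 11 network genes with at most 10 counts in each of the 36 libraries.

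Between cis SSP and cis cells 10 network genes were tested, 1 higher and 5 lower, against 15.8% and 13.3% of all genes, with a median of -0.46. CITED2 fell by 4.71 (SE 0.107, edgeR, Benjamini-Hochberg adjusted p = 1.05e-05), from 233 to 9.03 CPM, and SIX2 rose by 1.16 (SE 0.179, edgeR, adjusted p = 0.00505). In cis -SG against cis cells 7 of 13 were higher and 4 lower, against 37.6% and 37.4% of all genes. The receptor gene RET rose by 0.63 (SE 0.0881, edgeR, adjusted p = 1.80e-08). In wt cells with carboplatin 6 of 11 were higher and 3 lower, against 38.9% and 39.0% of all genes. The WNT ligand WNT4 went from 0.11 to 1.14 CPM (log2 3.31, SE 0.466, edgeR, adjusted p = 5.88e-12), and GDNF, the ligand of RET, from 0.29 to 2.24 CPM (log2 2.92, SE 0.317, edgeR, adjusted p = 7.57e-19).

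**Figure D4:**
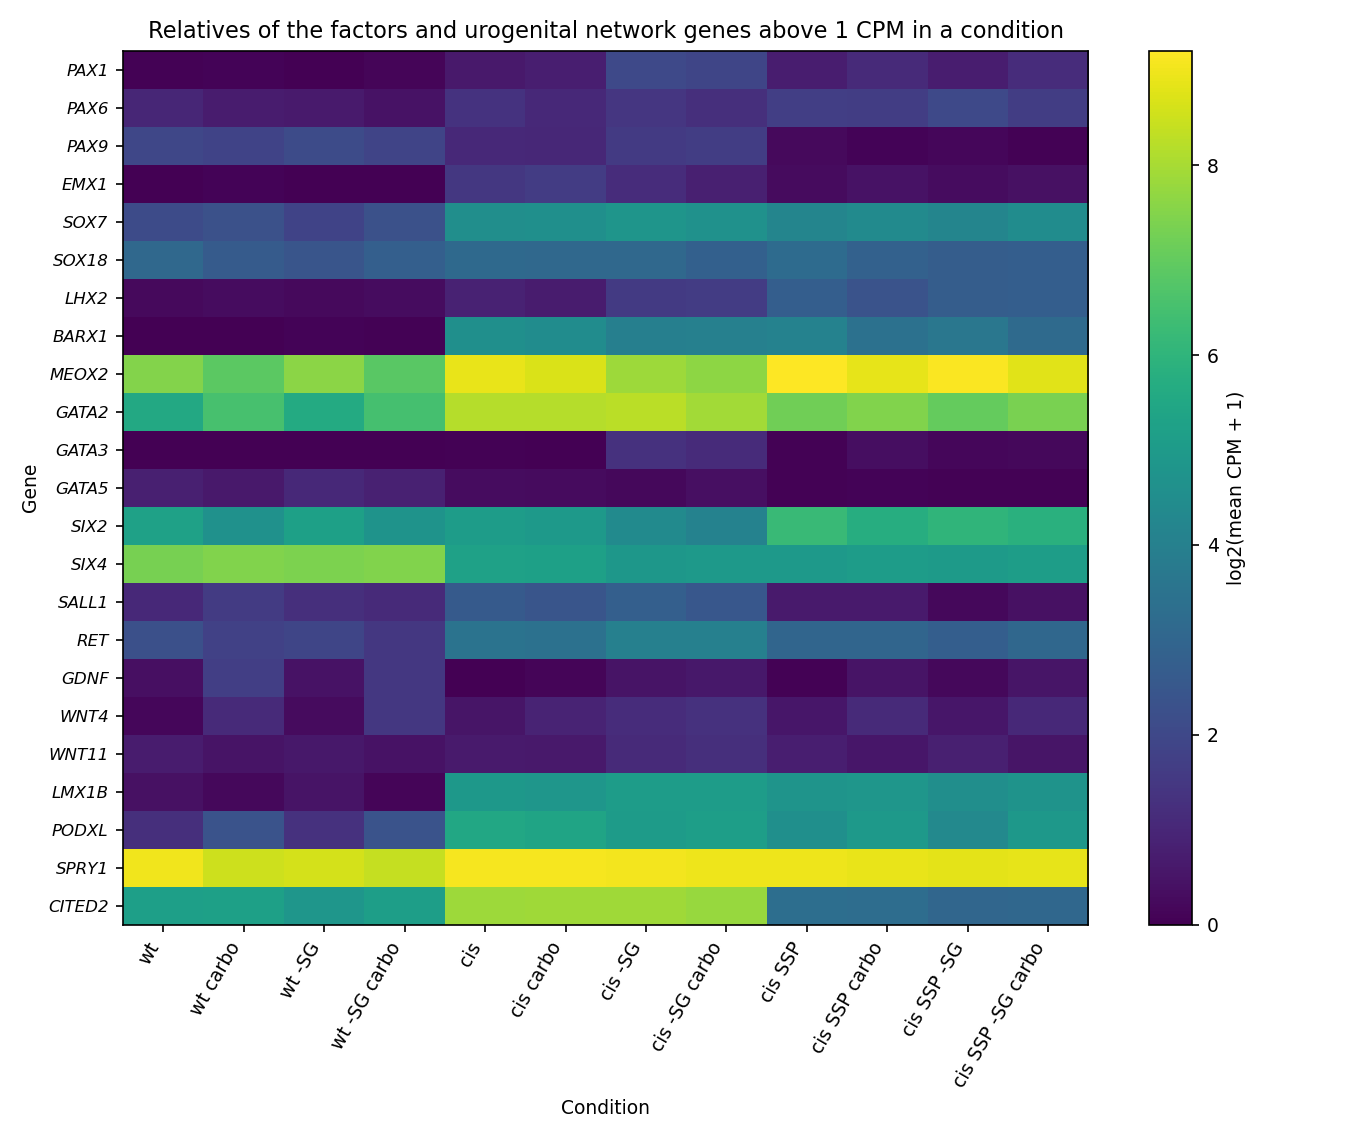
Mean level of 23 of the 42 relatives and urogenital network genes (rows, drawn from those above 1 CPM in some condition) in the 12 conditions (columns), coloured by log2(mean CPM + 1). SIX4 is higher in the wt columns, and BARX1, SOX7, LMX1B and PODXL are higher in the cis and cis SSP columns.

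Of 12 listed genes of gonadal somatic cells 5 were tested between cis and wt cells, 3 were lower, and 2 did not pass, where 78.5% of all genes were called. SOX9, a factor of Sertoli cells and of ducts, had 1785 counts in wt cells and 0 in cis cells, at least 560-fold lower, and FOXL2, a factor of ovarian granulosa cells, had 1243 and 0, at least 390-fold lower. AMH, the hormone that makes the Mullerian duct regress, was lower by 0.40 (SE 0.167, edgeR, Benjamini-Hochberg adjusted p = 0.0258). Of the Mullerian epithelium list 5 genes were tested in the same comparison, of which CRABP2, OVGP1 and EPCAM were lower, KRT18 was higher (log2 4.76, SE 0.157, edgeR, adjusted p = 1.63e-29) and KRT8 did not pass. CRABP2, a retinoic acid binding protein, fell by 6.17 (SE 0.0631, edgeR, adjusted p = 7.08e-50), from 167 to 2.34 CPM. In wt cells carboplatin raised 4 of 6 genes of that list and lowered 1, against 38.9% and 39.0% of all genes, among them the keratins KRT19 (249 counts against 1, ratio 265 with a counting interval of 47.1 to 10508, fitted log2 7.59, SE 0.423, edgeR, adjusted p = 5.05e-60), KRT8 (4.01, SE 0.240, edgeR, adjusted p = 2.78e-53) and KRT18 (3.03, SE 0.216, edgeR, adjusted p = 1.38e-39).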

How the data were processed

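RNA-seq libraries of wt, cis and cis SSP cells in 12 conditions were analysed, grouped by their GEO labels, with replicate numbers given in deposit order. The authors deposited raw counts per gene. They aligned reads with STAR to GRCh37.p13, converted formats with SAMtools and counted exons with HTSeq and GENCODE v19. The 3 rows that name no gene, among them reads on no feature (4.21% to 17.9% of the counts of a library), stayed out of library sizes and tests. GENCODE v44, lifted to GRCh37, gave symbols, positions and exon lengths and named 55538 of 57820 identifiers.

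Tests used edgeR 4.0.16 under R 4.3.3: TMM, filterByExpr, robust glmQLFit and glmQLFTest on the libraries of each comparison, with Benjamini-Hochberg adjustment over all genes tested and a threshold of 0.05. SE is the absolute log2 fold change divided by the square root of F. CPM used TMM effective sizes over the 36 libraries. Pooled ratios used summed counts with exact 95% intervals, or 3 counts where a condition was at 0. Over the 36 pairs of libraries of a condition the mean chi-square was 1.20 to 123, and no pair was counted as 1 sample. The fits were tested on simulated data. DESeq2 1.42.0 (the study's method, Wald test), its size factors, no filter, 1 fit over the 36 libraries and each library left out were alternatives, and leaving out cis -SG carbo replicates 2 and 3, or cis SSP replicate 1 with cis SSP -SG replicate 2, was added after seeing the data. Total counts of 13074937 to 20441582 per library set the counting error.

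The factors and gene lists were chosen with earlier results of these data known. Named from each list are at most 3 called genes per direction and comparison with the largest change among those whose groups do not overlap and whose mean count reaches 50. Further genes, among them lower-count list genes and the neighbours within 1 Mb, were chosen after their values were seen. Some listed genes are not reported here. Plots were drawn with matplotlib 3.10.9.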

Additional observations from a re-analysis of the deposited data

Results flagged for a closer look

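In complete medium, the change of MEOX1 with carboplatin was 3.13 on the log2 scale apart in the 2 lines, cis minus wt. The value is a description with no test, since MEOX1 was chosen for line differences and the wt carbo libraries held 19 counts in all. This difference was singled out because the 2 lines differed in the response itself. In wt cells all 3 treated libraries (0.305 to 0.410 CPM) lay below all 3 untreated ones (3.93 to 5.12 CPM), and in cis cells likewise (6.88 to 8.50 against 10.5 to 11.5 CPM). The value ran from 3.0 to 3.22 as each of the 12 libraries was left out in turn. No condition had more than 3 libraries, so single outlying samples within a condition were not tested.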

How the results depend on the processing

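No paired analysis was possible because the labels give no replicate numbers within a condition. Of 144 counts of called factors, 126 stayed within 1.5 times the reported count, and of 276 values of single factors 254 kept their direction and side of the threshold. The sign turned for MEOX1 with carboplatin in cis -SG cells, to 0.48 without replicates 2 and 3 of cis -SG carbo, which leaves 1 treated library, assumed to vary like the untreated ones, and so says nothing of the direction. It ran from -0.38 to 0.17 as single libraries were left out, and passed in none of these fits.

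The cause of the other changes was not tested. With 1 fit over the 36 libraries, the factors called numbered 1 between cis and wt and 1 between cis SSP and cis cells (0 before, WT1 in both), 1 with carboplatin in wt and 1 in wt -SG cells (2 before, PAX2 being lost), and 2 in each of cis SSP and cis SSP -SG cells (0 before). Without a filter the count was 1 between cis SSP and cis cells and 2 between cis -SG and cis cells, and DESeq2 gave 2 in the latter (1 before, WT1, with GATA4 being added) and 1 with carboplatin in each of cis SSP and cis SSP -SG cells. DESeq2's size factors gave 1 with carboplatin in wt -SG cells, and DESeq2 gave 2, PAX8 in place of PAX2. WT1, GATA4 and PAX8, and MEOX1 with carboplatin in wt and wt -SG cells, entered these counts through the group in which they were high. Those calls are therefore a description and no test. As single libraries were left out, the count ran from 0 to 2 with carboplatin in cis SSP and in cis SSP -SG cells and from 1 to 2 in wt -SG cells.

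Counts over all genes moved most in cis SSP cells. For serine and glycine removal they were 3 by edgeR, 105 by DESeq2, 5 with no filter, 1530 in 1 fit and 4996 without cis SSP replicate 1 and cis SSP -SG replicate 2. With carboplatin they were 377 by edgeR, 723 by DESeq2 and 3090 in 1 fit, and 199, 576 and 2860 without serine and glycine. Leaving out cis SSP replicate 1 gave 5835 calls with carboplatin and 9262 between cis SSP and cis cells (3990 with it, 7979 in 1 fit, 1995 to 2064 without a cis library). Leaving out cis SSP -SG replicate 2 gave 5679 with carboplatin. Without any 1 library of cis SSP or cis SSP -SG the count for serine and glycine removal was 0. In 1 fit the counts also fell to 2821 for wt -SG against wt (7021), 401 for carboplatin in cis (2702, DESeq2 1346), 1141 in cis -SG (3253, DESeq2 2146, 5224 without cis -SG carbo replicate 1) and 5240 for the carboplatin interaction (8807). Network genes lower in cis SSP than in cis cells numbered 3 in place of 5 without cis replicate 2 or 3, and relatives higher there 3 in place of 1 without cis SSP replicate 1. Of 320 list counts 292 stayed within 1.5 times. Depth limits the 5 factors with at most 10 counts per library, for which differences of a few counts cannot be read.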
